A study of Mus musculus with 4 samples.

Results

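The miR-99, miR-100 and miR-10 genes of the mouse were examined in AGO2 eCLIP of newborn brain. The members are Mir99a, Mir99b and Mir100, and Mir10a and Mir10b, which lie in Hox clusters. They were chosen by family, as 5 of the 2202 miRNA genes of the annotation, and a region belonged to a member when it overlapped the gene by 1 base or more on the same strand. All 5 had regions: 11 of 86106 in the library labelled Fmr1 knockout (KO), 10 of 46860 in the wild-type (WT) library, and 10 of 46862 in the table that sets the WT library against the KO-labelled one.

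In eCLIP, RNA crosslinked to a protein is immunoprecipitated (IP), and its reads are set against those of a size-matched input. Whole brains were from C57BL/6 mice on postnatal day 0, from an Fmr1 KO animal or animals (labelled "FMR1 ko") and from WT, with no treatment named. Each genotype has 1 AGO2 IP and 1 input, 4 samples in all, and the labels give neither the KO allele nor the number of brains. With 1 library per genotype no difference has a replicate check, no test between genotypes was possible, and every interval given is a 95% interval of counting error only.

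MicroRNAs are cut from hairpin precursors, and 1 strand of the duplex is loaded into an Argonaute protein such as AGO2. Bases 2 to 8 of the loaded strand, the seed, pair with sites that lie mostly in the 3' UTRs of target mRNAs and lower their output. The miR-99 and miR-100 RNAs are known to target Mtor and other growth regulators, and come from clusters that also carry let-7 and miR-125 genes. The miR-10 RNAs are known from the Hox clusters, whose genes set position along the body axis, and in vertebrates they are expressed mainly in the trunk and spinal cord.

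The mature 5p RNAs are shown because the seed, in capitals, separates the group into 2 sets. They are from RefSeq (GRCm38.p6), where all 5 members were found, and each matched the genome at its gene.
miR-99a-5p: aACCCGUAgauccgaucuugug
miR-99b-5p: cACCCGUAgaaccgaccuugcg
miR-100-5p: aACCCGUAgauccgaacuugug
miR-10a-5p: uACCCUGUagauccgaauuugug
miR-10b-5p: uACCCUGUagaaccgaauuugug

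The first 3 share the seed ACCCGUA and the last 2 share ACCCUGU. Counted from 1 at the 5′ end, miR-99a-5p and miR-100-5p differ by a single substitution, U16A, and miR-10a-5p and miR-10b-5p by U12A. miR-99b-5p differs from miR-99a-5p at 4 positions (A1C, U11A, U16C and U21C, with the base of miR-99a-5p first). With base 6 of miR-10a-5p removed, it differs from miR-100-5p at 2 positions, U1A and U17C. The near-identity means that a read cut short by crosslinking can be hard to place between Mir99a and Mir100, or between Mir10a and Mir10b, and the sources used here do not say how the authors placed reads that map to several genes.

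In mm10, Mir99a (ENSMUSG00000065530.1) lies at chr16:77598936-77599000 in an intron of the non-coding Mir99ahg. Mir99b (ENSMUSG00000065396.1) lies at chr17:17830188-17830257 in an intron of Spaca6. Mir100 (ENSMUSG00000093011.1) lies at chr9:41531425-41531504 in an intron of the non-coding 3110039I08Rik and Gm49317. Mir10a (ENSMUSG00000065519.1) lies at chr11:96317165-96317274, between genes and 993 bases from Hoxb4. Mir10b (ENSMUSG00000065500.3) lies at chr2:74726070-74726137 in an intron of both Hoxd3 and Hoxd4. All 5 are on the plus strand.

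The libraries differ in depth, which touches every value below. The KO-labelled IP had 2.28 times the depth of the WT IP. Input exceeded IP in depth by a factor of 1.92 in the KO-labelled pair and 6.34 in the WT pair. For the tissue label, regions were sought at 6 brain miRNA genes, 6 neuronal and 5 progenitor genes, all of which had regions in both libraries. Erythroid genes had regions in 4 of 4 cases in the KO-labelled library and 3 of 4 in WT, and endothelial genes in 3 of 3 in the KO-labelled library and 1 of 3 in WT. Of 2 choroid plexus genes, 1 had regions in each library. The part of these blood, vessel and choroid plexus genes in the results was not tested. A region did not have to be enriched to count here, and no share of all genes is set beside these counts. They therefore cannot single out brain. The WT library also has fewer regions in all, 46860 against 86106. Regions on Fmr1 exons numbered 5 in the KO-labelled library (28 IP reads over the 4 with recovered reads) and 2 in WT (9 IP reads), none enriched, so these data do not check the genotype.

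Every region of a member lay on the 5p arm: 11 in the KO-labelled library, 10 in WT and 10 in the table of both, with 0 on the 3p arm. Of the other miRNA genes with both mature arms listed, 244 had a region in the KO-labelled library, 94 of them on the 5p arm but not the 3p arm, 90 on the 3p arm but not the 5p arm and 57 on both. In WT these were 90, 79 and 67 of 238, and the few that remain had regions on neither arm. The caller cut Mir99a, Mir99b and Mir100, and Mir10a in the KO-labelled library, into 2 or 3 pieces each that hold nearly the same reads, so a gene was given the value of its piece with the highest −log10 p.

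**Figure D1:**
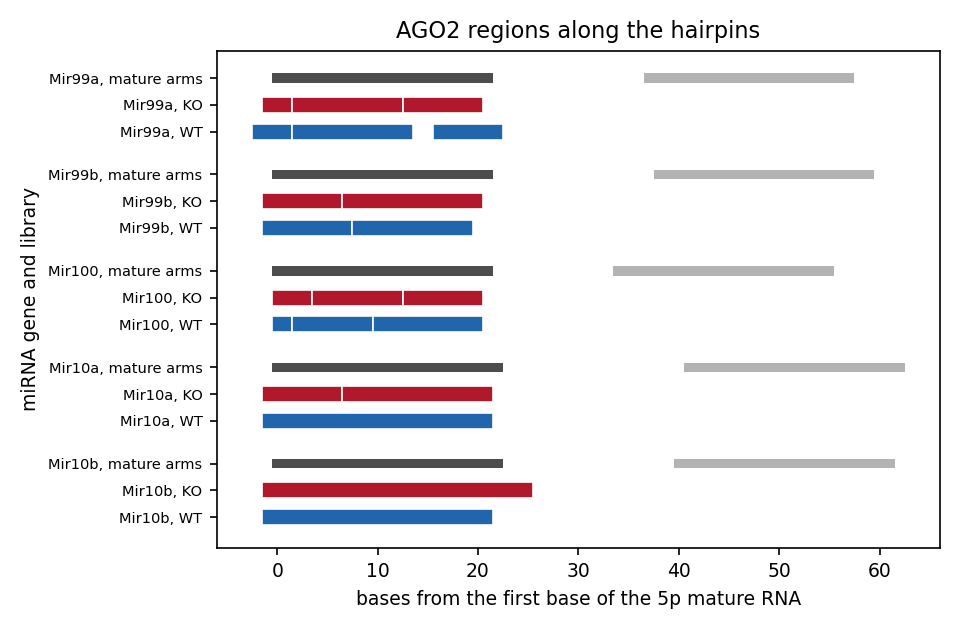
Horizontal bars are the authors' regions along each miRNA hairpin, in bases from the first base of the 5p mature RNA, with the KO-labelled library above WT for each gene; grey bars mark the mature 5p (dark) and 3p (light) arms. All 11 KO-labelled and 10 WT regions sit on the 5p arm.

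Reads were recovered from the authors' scores as described under the processing. Among the members Mir99a carried by far the most, with 1313 IP reads in the KO-labelled library (interval 1243 to 1386) and 1198 in WT (1131 to 1268). Mir99b had 195 reads in the KO-labelled library (169 to 224) and 196 in WT (170 to 225). Mir100 had 153 in the KO-labelled library (130 to 179) and 202 in WT (175 to 232). Mir99b and Mir100 were thus of like size, below Mir99a.

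The miR-10 genes were low in both libraries. Mir10a had 36 reads in the KO-labelled IP (25.2 to 49.8) and 12 in WT (6.20 to 21.0). Mir10b had 18 in the KO-labelled IP (10.7 to 28.4) and 4 in WT (1.09 to 10.2). Scaled to the depth of the WT IP, the KO-labelled reads came to 576 at Mir99a, 85.6 at Mir99b, 67.2 at Mir100, 15.8 at Mir10a and 7.90 at Mir10b.

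**Figure D2:**
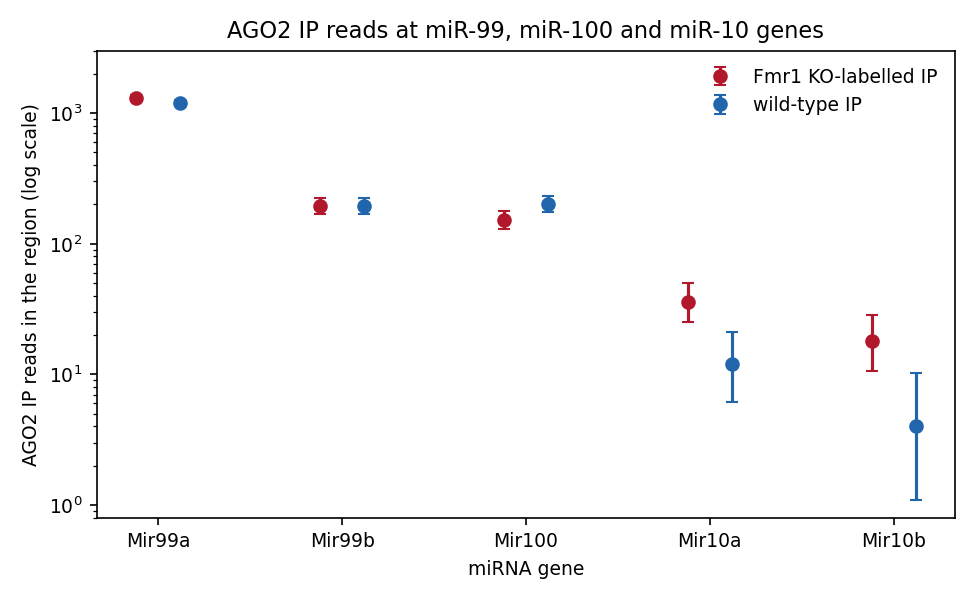
AGO2 IP reads at each member gene on a log axis, KO-labelled left of WT, unscaled for depth; points are recovered reads and bars are exact 95% Poisson intervals. Mir99a stands at 1313 and 1198 reads, and the miR-10 genes at 36 or fewer.

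The mature RNAs are 22 bases long for the miR-99/100 set and 23 for miR-10, so the order per base is the order of the reads. Mir99a had 59.7 reads per mature base in the KO-labelled library and 54.5 in WT, and Mir10b had 0.783 and 0.174. The ratio of Mir99a to Mir100 was 8.58 in the KO-labelled library (7.25 to 10.2) and 5.93 in WT (5.11 to 6.92), intervals that do not overlap. The ratio of Mir99a to Mir99b, 6.73 (5.79 to 7.87) in the KO-labelled library and 6.11 (5.25 to 7.15) in WT, overlapped. Mir100 against Mir99b was 0.785 in the KO-labelled library (0.631 to 0.975) and 1.03 in WT (0.843 to 1.26), so these neighbours could not be put in order in WT.

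Within the miR-10 pair, Mir10a exceeded Mir10b by a ratio of 2.0 in the KO-labelled library (1.11 to 3.74). In WT the ratio was 3.0 with an interval of 0.909 to 12.8, so no order could be given there. Mir100 exceeded Mir10a 4.25-fold in the KO-labelled library (2.94 to 6.29) and 16.8-fold in WT (9.43 to 33.1), and these intervals do not overlap. The miR-10 genes gave 54 of 1715 member reads in the KO-labelled library, 3.15% (exact interval 2.37 to 4.09), and 16 of 1612 in WT, 0.993% (0.568 to 1.61).

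The authors added 1 read to denominators, as seen where the IPs were compared. With the inputs taken to be treated the same way, both had 0 reads at all 5 members. The authors' log2 over input is therefore the log2 of the IP reads plus a depth constant of 0.94 in the KO-labelled pair and 2.66 in WT, and a gap between libraries in this measure carries that gap in depth. Against a floor of 3 input reads per library, Mir99a was enriched at least 839-fold in the KO-labelled library and at least 2531-fold in WT. The bounds for Mir100 were 97.8-fold and 427-fold, in the same order of libraries, and for Mir10b 11.5-fold and 8.45-fold.

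Counted as enriched at a −log10 p and a log2 over input of 3 or more, 11 of 11 member regions passed in the KO-labelled library, against 3.08% of all regions. By genes, 5 of 5 members passed there, against 68.3% of the 334 other miRNA genes with a region. In WT 9 of 10 regions passed, against 24.1% of all regions, and by genes 4 of 5 members, against 89.3% of 307 other miRNA genes. The WT region that did not pass was Mir10b, with a log2 of 4.66 and a −log10 p of 2.81. With 5 members, neither share is set apart from that of the other miRNA genes. At stricter limits of 5 and 4 the counts were again 11 in the KO-labelled library (1.38% of all regions) and 9 in WT (8.62%), and at limits of 3 and 1 they were also 11 (4.42%) and 9 (25.3%).

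On the authors' scale Mir99a had a log2 over input of 11.30 in the KO-labelled library, rank 1 of 200 miRNA genes with at least 20 reads, and 12.89 in WT, rank 2 of 222. The intervals were wide, 8.82 to 16.6 and 10.4 to 18.2, and the rank is not an order of IP reads. Mir125a, with at least 2019 IP reads in the KO-labelled library and 2617 in WT, scored lower, at 10.92 and 12.43. Its scores rest on at least 1 and 2 input reads, and those of Mir99a on 0. Mir99b had 8.55 in the KO-labelled library (rank 40) and 10.28 in WT (rank 58). Mir100 had 8.20 (rank 50) and 10.32 (rank 53). All 3 lay above the median of the other well-covered miRNA genes, which was 6.96 in the KO-labelled library and 8.95 in WT.

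Mir10a had 6.11 in the KO-labelled library and 6.25 in WT, and Mir10b 5.11 and 4.66, below those medians. Mir10a ranked 153 of 200 in the KO-labelled library. Among all miRNA genes with a region, with no limit on reads, Mir10b ranked 191 of 339 there, and in WT Mir10a ranked 232 and Mir10b 273 of 312.

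**Figure D3:**
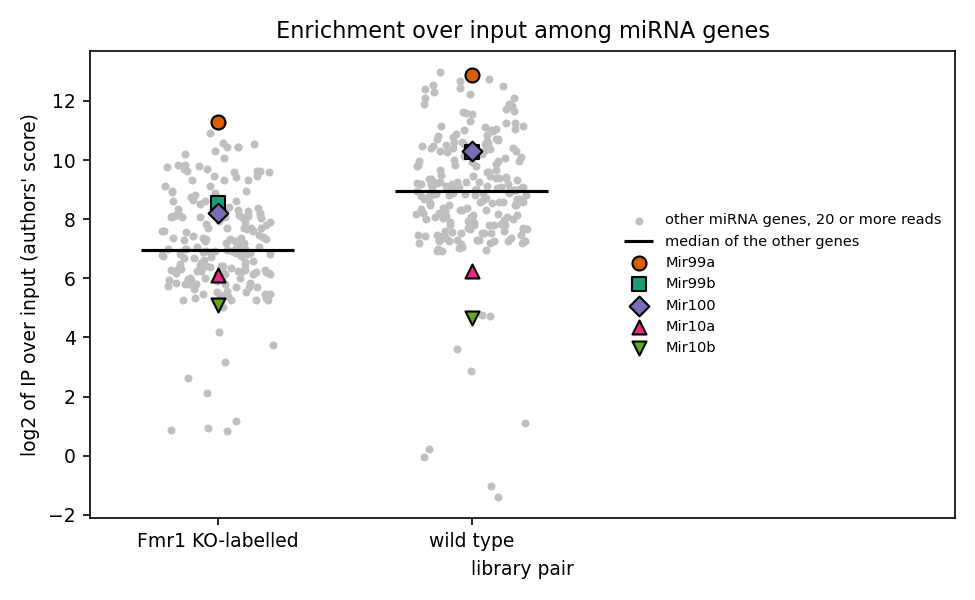
The authors' log2 of IP over input for each member (coloured symbols, those under 20 reads included) among other miRNA genes with 20 or more reads (grey), KO-labelled left of WT; black lines are the medians of the other genes, 6.96 and 8.95. The miR-99/100 genes lie above both medians and the miR-10 genes below them, as those under 20 reads with 0 input reads must.

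The 2 IPs are set against each other in the authors' deposited table, whose log2 is WT over KO-labelled, so that a positive value is higher in WT. In the authors' deposited table the log2 was 1.05 for Mir99a (0.94 to 1.17), 1.19 for Mir99b (0.89 to 1.48) and 1.59 for Mir100 (1.28 to 1.91). All 3 intervals were above 0, and that of Mir100 did not overlap that of Mir99a, while relative to the median of miRNA genes the 3 values were −0.47, −0.33 and 0.07. In the authors' deposited table Mir10a had −0.44 (−1.51 to 0.53) and Mir10b −1.06 (−3.07 to 0.53). Both intervals span 0, and both end below the lowest bound of the miR-99/100 genes.

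In the authors' deposited table, 8 of the 10 member regions, in Mir99a, Mir99b and Mir100, had a −log10 p of at least 3 and a log2 of at least 1, against 3.39% of all regions. The 8 regions are pieces of 3 of the 5 genes, a share near the 64.2% of the 307 other miRNA genes that passed. Of the member regions 0 passed limits of 5 and 2, which 0.393% of all regions did. None was lower in WT, by a p computed from the reads in both directions, where 0.177% of all regions were: the −log10 p was 0.349 for Mir10a and 0.592 for Mir10b. The authors' p compares the reads of 2 libraries and not the genotypes.

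The median over 237 miRNA genes with at least 20 reads was 1.52 in the authors' deposited table, and over 3125 regions outside miRNA genes with as many reads it was 0.38. Among those 237 genes Mir100 ranked 104, Mir99b 191, Mir99a 210, Mir10a 234 and Mir10b 235, counted from the highest in WT. Of the other 232 genes, 2 had a log2 below 0 in the authors' deposited table. These were mmu-mir-3535, at −1.86 with 131 KO-labelled and 16 WT reads, and Mir1291, at −1.40 with 29 KO-labelled and 5 WT reads. Summed over genes, the miR-99/100 set had 1661 KO-labelled and 1596 WT reads, a log2 of WT over KO-labelled of 1.13 after depth (1.03 to 1.23). The miR-10 set had 54 and 16 reads and −0.57 (−1.47 to 0.26).

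Nearness of pattern was measured as the Euclidean distance over the 3 log2 values, among 286 miRNA genes with all 3. The nearest genes to Mir100 were Mirlet7d (distance 0.0751) and Mirlet7g (0.194), and to Mir99b they were Mir127 (0.149) and Mir181d (0.205). Mir99a was nearest to Mir125a (0.781) and Mirlet7i (0.900). For Mir10b they were Mir341 (0.498) and Mir206 (1.36), and for Mir10a Mir3059 (1.57) and Mir873a (1.63). The nearest gene of Mir10a was farther away than that of any other member.

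The 3 miR-99/100 genes each lie in a cluster with a let-7 and a miR-125 gene. Mirlet7c-1, which starts 657 bases from Mir99a, had 555 IP reads in the KO-labelled library and at least 749 in WT. In the authors' deposited table its log2 was 1.62 (1.46 to 1.78), above the interval of Mir99a. The WT reads and this interval use the lowest whole numbers that give scores with a −log10 p of 400. Mir125b-2, at 47273 bases, had 76 KO-labelled and 146 WT reads, each in its own library's region. In the authors' deposited table it had 2.25 (1.83 to 2.68), from 146 WT and 69 KO-labelled reads in the WT region. Within this cluster the values therefore differed by more than counting error.

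Beside Mir99b, Mirlet7e at 95 bases had no region in any table. Mir125a, at 555 bases, had at least 2019 IP reads in the KO-labelled library and at least 2617 in WT. These are the lowest whole numbers that give its scores, whose −log10 p of 400 does not settle the reads. Its log2 in the authors' deposited table was 1.56. Beside Mir100, Mirlet7a-2 at 5212 bases had 288 KO-labelled and 334 WT reads, and 1.40 (1.17 to 1.63) in the authors' deposited table, an interval that overlaps that of Mir100. Mir125b-1, at 50422 bases, had 109 KO-labelled and 298 WT reads, and 2.63 (2.31 to 2.95). The let-7 and miR-125b genes have paralogues with identical or near-identical mature RNAs, so their reads may be shared among copies. This limits the differences within the clusters, that of Mir99a included, since a value may not belong to 1 copy.

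**Figure D4:**
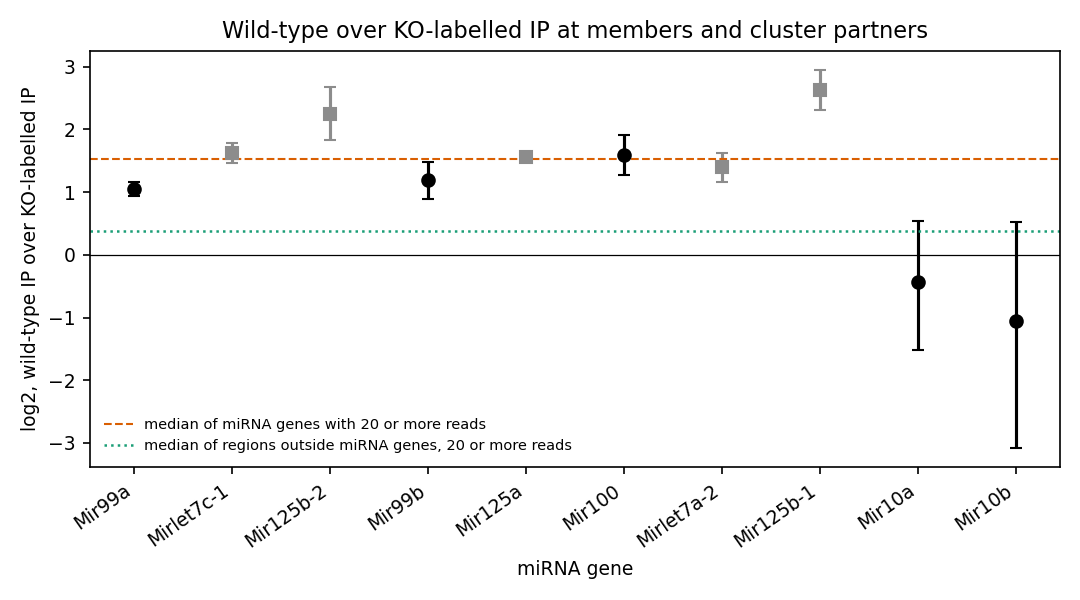
The authors' log2 of the WT IP over the KO-labelled IP for the members and for let-7 and miR-125 genes of the same clusters; bars are 95% counting intervals (none for Mir125a, whose reads were not recovered here), and lines mark the medians of miRNA genes (1.52) and of other regions (0.38). As deposited, with no centring, Mir10a and Mir10b alone lie below 0 among the genes drawn.

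Of the other miRNA genes in Hox clusters, Mir196a-1, Mir196a-2 and Mir196b had no region. Mir615 had 6 IP and 0 input reads in the KO-labelled library (log2 3.52, −log10 p 2.10) and no region in WT. The 39 Hox genes themselves gave few reads. The KO-labelled library had 2 regions, both in the 5' UTR of Hoxa4 with 5 reads each, and WT had 3, in the 3' UTR of Hoxa2 and an intron of Hoxb3. The Hoxb3 region, with 6 reads, a log2 of 5.25 and a −log10 p of 4.40, was the only enriched one. Hoxb4, Hoxd3 and Hoxd4, beside the miR-10 genes, had none in either library.

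The host transcript Mir99ahg had 52 regions outside miRNA genes in the KO-labelled library, 0 of them enriched, and 27 in WT, 5 of them enriched. 3110039I08Rik, around Mir100, had 26 with 0 enriched in the KO-labelled library and 11 with 3 enriched in WT. Spaca6 had none in either. The WT input was the deeper of the pair relative to its IP, and the share of all regions called enriched differs likewise (3.08% in the KO-labelled library and 24.1% in WT). The part of depth in the hosts' counts was not tested.

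Sites for the 2 seeds were sought in 3' UTR clusters on the transcript strand, as the reverse complement of bases 2 to 8: TACGGGT for miR-99/100 and ACAGGGT for miR-10. A match describes the letters of a cluster and does not show which miRNA brought AGO2 there. Of 954 enriched 3' UTR clusters in the KO-labelled library (9.01% of 10586), 4 held the miR-99/100 site, 0.419% (0.114 to 1.07). In WT, 9 of 3175 (37.2% of 8533) did, 0.283% (0.130 to 0.537). Clusters that were not enriched held it in 7 of 9632 in the KO-labelled library, 0.0727%, and 5 of 5358 in WT, 0.0933%.

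Per kilobase, enriched clusters had 0.0571 miR-99/100 sites in the KO-labelled library (0.0156 to 0.146) and 0.0540 in WT (0.0247 to 0.102), 7.53 and 7.11 times the 0.00759 of all annotated 3' UTRs. Clusters that were not enriched had 0.0160 per kilobase in the KO-labelled library (0.00642 to 0.0329) and 0.0288 in WT (0.00936 to 0.0673), 2.10 and 3.80 times all 3' UTRs, with intervals that overlap those of the enriched clusters. With 50 bases added on each side, enriched clusters stood at 3.98 times all 3' UTRs in the KO-labelled library and 2.99 times in WT. The site holds a CpG, and enriched clusters had 18.3 CpG per kilobase in the KO-labelled library and 16.3 in WT, against 10.6 in all 3' UTRs. In clusters not enriched the CpG count per kilobase was 17.0 in the KO-labelled library and 15.1 in WT. The part of base composition in the result was not tested. The miR-10 site was in 4 of 954 in the KO-labelled library (0.419%) and 11 of 3175 in WT (0.346%), or 0.0571 and 0.0660 per kilobase, 0.575 and 0.663 times the 0.0995 of all 3' UTRs, which lies inside both counting intervals. Clusters that were not enriched had 0.0775 per kilobase in the KO-labelled library and 0.0750 in WT.

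**Figure D5:**
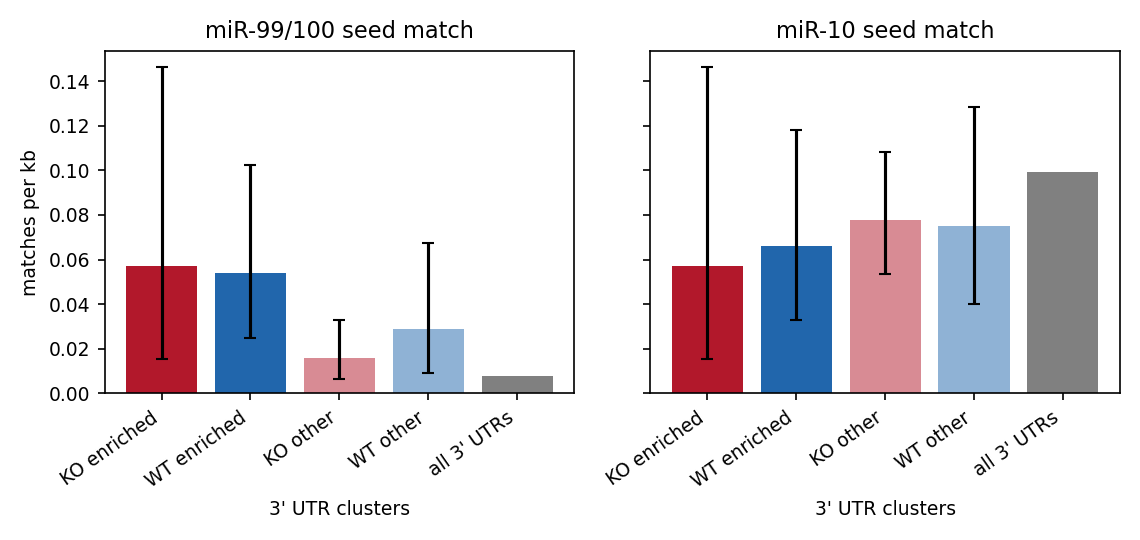
Seed sites per kilobase for miR-99/100 (left panel) and miR-10 (right panel) in enriched and not enriched 3' UTR clusters, KO-labelled left of WT, and in all annotated 3' UTRs; bars carry exact 95% Poisson intervals of the site counts, none for all 3' UTRs. Enriched clusters stand 7.53 and 7.11 times above all 3' UTRs for miR-99/100, on 4 and 9 sites, with intervals that overlap those of clusters not enriched, and below them for miR-10, where both intervals include the value of all 3' UTRs.

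The sites found in enriched clusters of both libraries are shown with the seed match in capitals, 25 bases each on the transcript strand of mm10, since they lie in AGO2 clusters that both libraries share.
Kdm6b: gcggcgggggtcacaTACGGGTtcc
Baz2a: cctcccatcagaaatTACGGGTact
App: catcataagcactttTACGGGTggg
Impdh1: tccatagatttgcacTACGGGTtcc
Dynll2: ggggaggctgtgaggACAGGGTtag
Adarb1: cagcaccctctctgcACAGGGTgga

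For miR-99/100, the 4 genes of the KO-labelled library were among the 9 of WT, 100% of the KO-labelled list and 44.4% of the WT list. Of all genes with a 3' UTR cluster, 15.6% had an enriched one in the KO-labelled library and 51.5% in WT. The overlap of the libraries over all such genes is not given here, so the shares cannot be called particular to the site. Kdm6b, a histone H3K27 demethylase (site chr11:69399501-69399507, minus strand), had 33 IP and 1 input reads in the KO-labelled library and 42 and 2 in WT. Baz2a, a subunit of a chromatin remodelling complex (chr10:128128281-128128287, plus strand), had 16 IP reads in the KO-labelled library and 17 in WT, with 0 input reads in either. App, the amyloid precursor gene (chr16:84954589-84954595, minus strand), had 12 IP reads in the KO-labelled library and 10 in WT, with 1 input read each. Impdh1, an enzyme of guanine nucleotide synthesis (chr6:29201093-29201099, minus strand), had 10 KO-labelled and 7 WT reads over 0 input reads. WT clusters over the limits further included Serinc1 (13 IP and 5 input reads) and Vps37c, an ESCRT-I subunit (9 and 0).

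For miR-10, 2 of 4 genes of the KO-labelled library were among the 11 of WT, 50% and 18.2% of the lists, again without the overlap over all genes to set beside them. Dynll2, a dynein light chain (chr11:87980995-87981001, minus strand), had 53 IP and 6 input reads in the KO-labelled library and 66 and 14 in WT. Adarb1, an adenosine-to-inosine RNA editing enzyme (chr10:77293568-77293574, minus strand), had 11 KO-labelled and 8 WT reads over 0 input reads. Slc25a1, the mitochondrial citrate carrier, passed in the KO-labelled library with 15 IP reads. A WT cluster that overlaps it was enriched too (7 reads, log2 5.47) but was not counted among those with the site. Esrrg, a nuclear receptor, passed with 12 reads and had no WT cluster there. In WT, Pgm2l1 (11 IP reads), the transcription factor Bach2 (8), Vopp1 (7) and the chromatin regulator Jarid2 (6) passed. For Pgm2l1 the overlapping KO-labelled cluster was enriched as well (9 reads, log2 4.11), again not counted among those with the site.

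The WT over KO-labelled log2 at the 6 sites shared by both libraries lay below the median of the miRNA genes, which are another class of region. It lay above the median of regions of all kinds outside miRNA genes with at least 20 reads (0.38). In the authors' deposited table it was 1.15 at Kdm6b, 1.19 at Baz2a, 0.70 at App and 0.83 at Impdh1, and 0.60 at Dynll2 and 0.49 at Adarb1. The closer set, 3' UTR regions with neither site and at least 20 reads, had a median of 0.77. Kdm6b, Baz2a and Impdh1 lay above that and App, Dynll2 and Adarb1 below it. Impdh1, with 7 WT and 8 KO-labelled reads, does not reach 20 reads. Over 3' UTR regions with at least 20 reads, the authors' deposited table gave a median of 1.17 for 4 regions with a miR-99/100 site, 0.96 for 4 with a miR-10 site and 0.77 for 909 with neither. With no limit on reads the order was turned round: the authors' deposited table then gave a median of 1.19 for 14 miR-99/100 regions, 1.55 for 24 miR-10 regions and 1.93 for 8477 with neither. The upper quartile was then 2.77 in each set, a score of regions with few WT reads and none in the KO-labelled IP. Nearly all regions compared were called in WT, so low counts weigh on these medians and their order is not read further.

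Targets known from the literature were counted from a list drawn up with earlier results of these data known. Of 20 miR-99/100 targets, 15 held the site in a 3' UTR, 13 had a 3' UTR cluster in the KO-labelled library and 11 in WT, and 2 had an enriched one in the KO-labelled library and 8 in WT. Among all genes with a 3' UTR cluster, 15.6% had an enriched one in the KO-labelled library and 51.5% in WT. The site lay inside a cluster for Baz2a and Ctdspl in the KO-labelled library, and for these and Ago2 in WT. Ctdspl, a small phosphatase of the carboxy-terminal domain type, had 5 reads over 0 input reads in both libraries. Mtor, a kinase of growth control, held a site in its 3' UTR but none within 50 bases of a cluster.

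Of 25 miR-10 targets, 19 held the site, 11 had a 3' UTR cluster in the KO-labelled library and 8 in WT, and 1 had an enriched cluster in the KO-labelled library and 3 in WT. Over all genes with a 3' UTR cluster, the share with an enriched one was 15.6% in the KO-labelled library and 51.5% in WT. With so few targets, their shares are not set apart from these. In WT the site lay inside an enriched cluster of Elavl3, a neuronal RNA-binding protein gene, with 6 IP reads and 1 input read (log2 4.25).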

How the data were processed

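AGO2 eCLIP libraries were analysed from the authors' deposited region files. Per the labels' protocols and the submitters' processing notes, adapters were trimmed with cutadapt 1.15, reads on repeats were removed and the others aligned to mm10 by STAR 2.6.0c, duplicates removed with UMI tools 5.2, clusters called per IP with CLIPper 1.4, and cluster density compared with size-matched input. Per the file values, each deposited region carries the authors' −log10 p, listed as at most 400, and the authors' deposited log2 ratio over input, or, in the table of the series, of WT over KO-labelled IP. The steps behind the table of both IPs are not given in the sources used here. Its direction was taken from its regions, of which 46799 of 46862 equal those of the WT file. The inputs enter only through these scores.

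Reads were recovered as whole-number ratios (denominator up to 1000) that also give the listed p within 1%: ratios were found for 99.99% of KO-labelled and 99.99% of WT regions and 99.97% of the table of both, and reads for 87.6%, 99.1% and 99.1%. The WT reads were equal between tables in 42615 of 42615 regions. A −log10 p of 400 settles no reads, and there the lowest whole numbers of the ratio stand unless another table settles them. In 93 of 93 regions with the same coordinates, the denominator exceeded the KO-labelled reads by 1, so 1 was taken off, and inputs were taken to be treated the same way. Regions with a log2 below 0 list a −log10 p of 0, and their p was recomputed in both directions. The recovery was tested on simulated scores made with the same p formula and a known depth constant, so that test covers the inversion only. GENCODE mm10 annotation and RefSeq sequences were used with Python 3.11.15, pandas 2.3.3, scipy 1.17.1, pysam 0.24.0 and bedtools 2.31.1. Intervals are exact binomial or Poisson, at 95%.

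The genes named are the members, their cluster partners and hosts, Hox neighbours, the 2 nearest miRNA genes by pattern, up to 6 seed-site genes per seed and library by −log10 p, and lists of literature targets, plus 2 miRNA genes below 0 that were named after their values were seen. Members and lists were chosen with earlier results of these data known. Alternatives covered the overlap rule, the limits, the region that gives a gene its value, centring, the genes ranked and the definition of a site; taking off the added read was chosen after seeing the data. The result of 1 listed target gene is not reported here.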

Additional observations from a re-analysis of the deposited data

How the results depend on the processing

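The log2 of WT over KO-labelled IP depended on centring. Centred on all regions, Mir99a was −1.72, Mir99b −1.58 and Mir100 −1.18, and centred on miRNA genes Mir99a was −0.47 and Mir99b −0.33, all reversed, since the centres (2.77 and 1.52) exceed their values. The median of the members was −1.72 and −0.47 under these 2 settings and 0.67 when centred on regions outside miRNA genes. The centre of all regions rests on regions with a median of 4 WT reads, nearly all of them called in WT. A sign reversed by that centre therefore says little about the members. Mir10a and Mir10b stayed below 0 under every centring run, as they had to, since every centre was above 0. Without the added read, a setting chosen after seeing the data, no member changed its sign. With limits of 5 and 2, the members higher in WT numbered 0 in place of 3.

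The percent of enriched 3' UTR clusters with a miR-99/100 site was 0.105 in the KO-labelled library and 0.0630 in WT with an A opposite base 1, 0.104 over all KO-labelled clusters, and 0.661 in WT with bases 2 to 7. For miR-10 it was 0.105 in the KO-labelled library and 0.0315 in WT with the A, 3.25 and 2.55 with bases 2 to 7, and 1.26 and 1.07 with 50 bases added, in the same order, and 0 in the KO-labelled library with limits of 5 and 4. These follow from the definition of the site or the clusters counted. Of the remaining values, 50 of single genes and 29 summaries stayed within their spread, and 7 of single genes moved without a change of sign.

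No paired analysis was possible because each genotype has 1 IP library, and leaving out a library leaves no comparison. Counting error limits the miR-10 values, which rest on 36 or fewer reads.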
